A study of Homo sapiens with 6 samples.

Results

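The genes described here carry symbols of mitochondrial ribosomal proteins, and MRPS36 among them is now known not to be a ribosome subunit. Members were the genes of the table whose mapped symbol was MRPL or MRPS followed by a number, with pseudogenes left out. For MRPS symbols a letter A to C was allowed after the number. The rule found 76 of the 57905 gene IDs, 48 with MRPL and 28 with MRPS symbols. MRPS21 and MRPL45, which fit it too, were not among the mapped symbols and are not analysed here. RNA was measured in Huh7 cells, an established human hepatocellular carcinoma line, 72 h after transfection with a small interfering RNA. The control group received a scrambled siRNA (siControl, labelled WT) and the other group an siRNA against ASGR1 (siASGR1, labelled AS2), the gene for the major subunit of the asialoglycoprotein receptor of liver cells. Each group had 3 libraries, both groups carried a transfected siRNA, and a single siRNA label stood for the knockdown. The labels do not say whether the 3 libraries came from separate cultures, so p-values measure only the spread between these libraries.

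Mitochondria keep their own ribosome, which translates the few mRNAs of mitochondrial DNA into core subunits of the respiratory chain and ATP synthase. Its rRNAs are transcribed from mitochondrial DNA, whereas its proteins are encoded in the nucleus, made in the cytosol and imported. Some of these proteins are related to proteins of bacterial ribosomes and others have no bacterial relative. Liver cells hold many mitochondria, and the ETS-family factor GABPA, NRF1 and YY1 are textbook regulators of nuclear genes for mitochondrial proteins.

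The promoters are shown first because members share short letter runs that the choice by symbol did not use. RefSeq windows (GRCh38.p14) of 300 bases, 250 before and 50 after the annotated start, were found for 67 of the 76 genes. The 7 motifs searched on both strands were CCGGAAG for the ETS family, AAGATGGC for YY1, GCATGCGC for NRF1, the CCAAT box, the TATA box with the letters TATAAA, the E-box with the letters CACGTG and the GC box with the letters GGGCGG. This list was chosen after expression values had been seen. CCGGAAG occurred in 28 of the 67 windows (41.8%), against 10.7% of all windows and 20.5% of those of genes tested for expression. The lines below give the match nearest the start, in capitals in either orientation, for 4 of the largest called increases and for every called decrease that had one, with 10 bases on each side and read along the gene's strand.
MRPL40, chr22:19432524-19432550, plus strand: gggcgcacgcCCGGAAGcggcgagggt
MRPL53, chr2:74472664-74472690, minus strand: tgcacgagttCTTCCGGggcggaggtc
MRPS34, chr16:1773137-1773163, minus strand: cttccggtgaCTTCCGGccggaccgct
MRPL16, chr11:59810768-59810794, minus strand: gtgaacacaaCTTCCGGccccactgag
MRPS12, chr19:38930929-38930955, plus strand: cggatagcgcCCGGAAGaggctagaag
MRPL54, chr19:3762651-3762677, plus strand: ccactgacgtCTTCCGGaaacgtgcac
MRPS31, chr13:40771206-40771232, minus strand: aggcgccaggCCGGAAGcggaagagag

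The YY1 letters AAGATGGC occurred in 19 of the 67 windows (28.4%), against 3.03% of all windows and 5.79% of those of tested genes. They are shown for called members by the same choice, with the match in capitals. Here the choice reached down to MRPL20, which was 1.21-fold higher in siASGR1. They contain ATG, so after a start site the same letters can also be a translation start, and which of these a match is was not tested.
MRPS7, chr17:75261888-75261915, plus strand: gtggccagccAAGATGGCtgcccccgca
MRPL46, chr15:88467363-88467390, minus strand: gggagaacgaAAGATGGCggcgcccgta
MRPL36, chr5:1799855-1799882, minus strand: cccccccgccGCCATCTTccttcctggc
MRPL20, chr1:1407261-1407288, minus strand: cgacccgggcAAGATGGCagcggcgctg
MRPS12, chr19:38930722-38930749, plus strand: catggacgcaGCCATCTTggaccgggaa
MRPL42, chr12:93467512-93467539, plus strand: ggattgaaacAAGATGGCgggttcgtgg

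Both runs were found among members of either direction. CCGGAAG was in 11 of 30 windows of called increases, 3 of 9 of called decreases and 13 of 27 of members not called. AAGATGGC was in 9 of 30, 2 of 9 and 8 of 27 of the same classes. The NRF1 letters GCATGCGC were in 6 of the 67 windows (8.96%, against 5.83% of tested genes), and all 6 belonged to members that were not called. The other 4 motifs were less frequent in the members' windows than in those of tested genes: CCAAT 28.4% against 37.3%, the GC box 61.2% against 71.1%, the TATA box 2.99% against 5.31% and the E-box 7.46% against 10.5%. Among all windows the shares were 35.7% for CCAAT, 44.6% for the GC box, 12.0% for the TATA box and 7.43% for the E-box. The GC box was therefore more frequent in members than in all windows. A match is a run of letters and not a site shown to be bound.

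The values are FPKM (fragments counted on a gene, scaled by its exon length and by the library total), and the fragments behind them, rebuilt from the steps between low values, came to between 16285000 and 19266000 per library. ASGR1 itself was 17.54, 17.56 and 16.90 FPKM in the siControl libraries of the deposited series table and 4.60, 4.82 and 4.71 in the siASGR1 libraries. The deposited files of the single libraries gave 14.65, 15.81 and 14.04 for the same siASGR1 libraries, and ASGR1 was the only gene for which these sources differed, so the size of the knockdown depends on the file. No member differed between them. All 9 hepatocyte markers were called higher in siASGR1 (summed 3616 to 3760 FPKM against 6807 to 6899), as were 20.9% of all tested genes. The 6 fibroblast markers summed to 5.49 to 6.62 in siControl and 0.59 to 0.85 in siASGR1. Both tested ones (COL1A1 and COL1A2) were called lower, as were 40.4% of all tested genes. They passed the filter (at least 1 FPKM in 3 libraries) through siControl alone, so the filter set this direction. The 3 endothelial markers measured were near 0 (at most 0.21 summed), and of the 6 leukocyte markers, whose sum was 70.1 to 76.6 against 115.9 to 119.6 FPKM, LYZ carried nearly all while PTPRC and CD3E were near 0. The part of these shifts in the results that follow was not tested.

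The members were expressed at moderate levels over a wide range. Their mean FPKM over the 6 libraries ran from 0.427 for MRPL30 to 108.7 for MRPS34 with a median of 14.9, and 64 of 76 lay between 5 and 40. MRPS34, a mitochondria-specific protein of the small subunit, had 91.62, 89.40 and 83.59 FPKM in siControl and 125.13, 140.18 and 122.37 in siASGR1. MRPL51, a mitochondria-specific protein of the large subunit, followed with 72.38, 68.68 and 74.91 against 81.67, 87.03 and 78.63. For both genes every siASGR1 library was above every siControl library, and both were called higher by limma (log2 difference 0.54 ± 0.06 (SE), adjusted p = 0.000258, and 0.19 ± 0.05, adjusted p = 0.0144). The call for MRPL51 was lost with quantile normalization (limma adjusted p = 0.0501). Of the exon bases of MRPL51, 31.3% are shared with NCAPD2 of the opposite strand, which was also called higher (48.7 to 56.0 in mean FPKM).

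MRPL11 and MRPL28, both with bacterial relatives in the large subunit, came next in level. MRPL28 had 51.28, 49.06 and 48.03 FPKM against 58.17, 66.65 and 57.46, a 1.23-fold increase (limma adjusted p = 0.00571). At the other end, MRPL30 was at 0.73, 0.25 and 0.53 against 0.55, 0.11 and 0.39 FPKM, with overlapping groups, and was not tested. Its annotated exons are shared in part (19.5% of bases) with 2 other gene models of the same strand. The scatter of group means shows all 76 genes along the line of equal level.

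**Figure D1:**
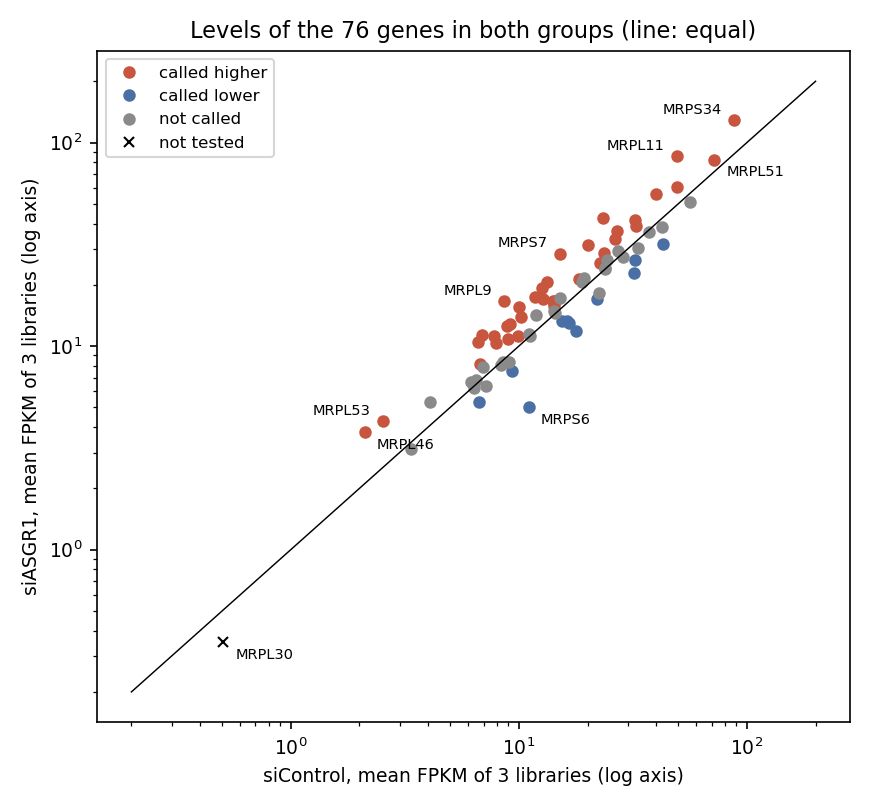
Mean FPKM of each of the 76 genes in siControl (x axis, log scale) and siASGR1 (y axis, log scale), 3 libraries per group, with the line of equal level. Points are coloured by call, most lie above the line, MRPS6 is the point farthest below it and MRPL30 the untested gene at lowest level.

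Of the 75 members that passed the filter (at least 1 FPKM in 3 libraries), 36 were higher in siASGR1, 11 were lower and 28 were not called by limma on log2(FPKM + 1) at an adjusted p under 0.05. Among all 13568 genes tested the shares were 20.9% higher and 40.4% lower, against 48.0% and 14.7% of the members. The median log2 difference was 0.17 for the members and -0.13 for all tested genes. FPKM is relative to the library total, so these are shares of the measured RNA, and in bulk libraries a change in which cells are present cannot be told apart from a change in RNA per cell. With median-of-ratios scaling the counts of members became 48 higher and 6 lower (all genes 29.9% and 28.9%), and with its factors taken over all genes above 0 they became 51 and 3 (33.4% and 25.8%). The summed FPKM of the 76 genes was 1487, 1455 and 1453 in siControl and 1646, 1771 and 1641 in siASGR1, a ratio of 1.15 with no overlap. Of the members, 45 (59.2%) had their highest siASGR1 value in siASGR1 replicate 2, against 34.2% of tested genes, and without that library 37 members were higher and 12 lower.

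Most differences were small. Changes of at least 1.5-fold that also passed the test were seen for 12 members upward and 1 downward, MRPS6 (all genes 8.63% and 19.9%). The groups of 3 did not overlap for 37 of the 76 members upward and 13 downward, where 23.5% and 43.8% of tested genes did so. The fold is on mean FPKM, whereas the log2 difference includes the pseudocount of 1 and understates changes of low genes. The plot of differences with their intervals shows the 75 tested genes in order.

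**Figure D2:**
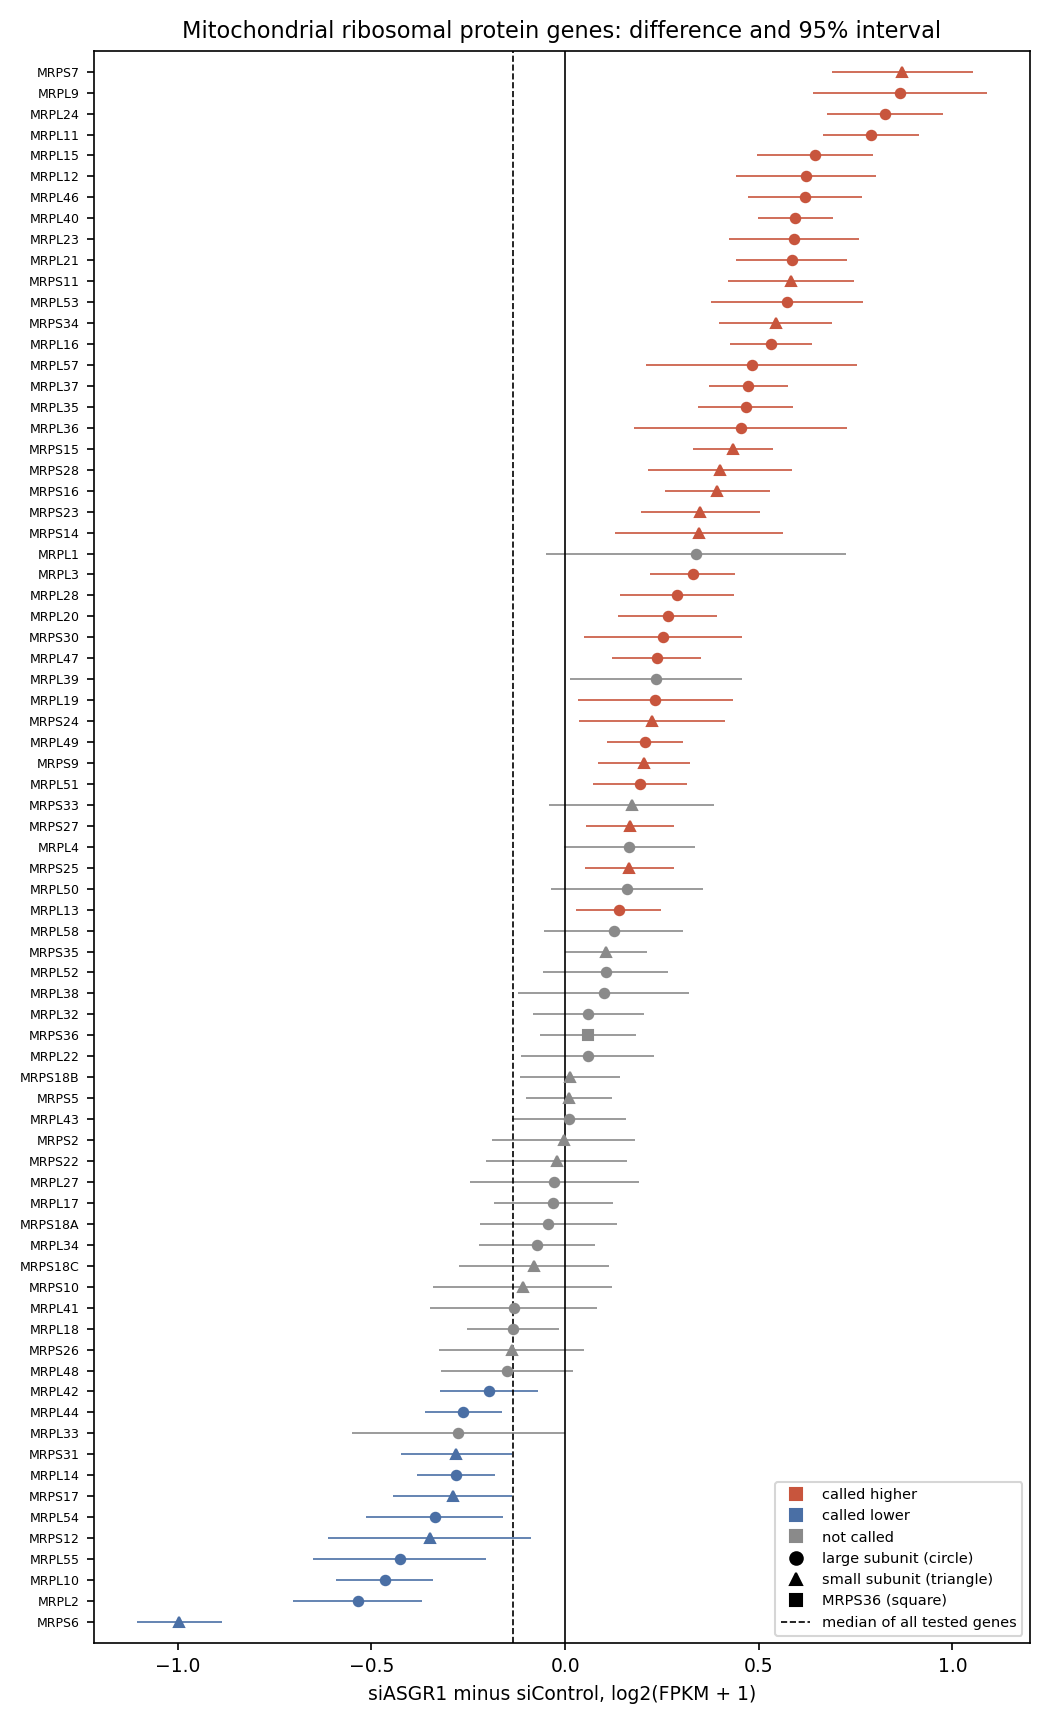
Difference between siASGR1 and siControl on the log2(FPKM + 1) scale (x axis) with its 95% interval from limma for the 75 tested genes (y axis), n = 3 libraries per group. Colour gives the call and shape the subunit: MRPS7 has the highest value (0.87), MRPS6 the lowest (-0.996), and large- and small-subunit genes are found throughout.

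Both subunits took part. In the large subunit 24 of 49 tested members were higher and 7 lower, with a median log2 difference of 0.19, and in the small subunit 12 of 25 were higher and 4 lower, with a median of 0.17. Proteins with a bacterial relative were higher in 24 of 44 and lower in 7, whereas mitochondria-specific proteins were higher in 12 of 30 and lower in 4. With median-of-ratios scaling the counts were 31 higher and 5 lower for the large and 16 and 1 for the small subunit, and 28 and 5 for proteins with a bacterial relative and 19 and 1 for mitochondria-specific ones. The difference between these classes was not tested. Among proteins of the cytosolic ribosome, which translates nuclear mRNAs, 4 of 78 were higher (5.13%) and 47 lower (60.3%), with a median of -0.20. All tested genes had 20.9% higher and 40.4% lower, with a median of -0.13. With median-of-ratios scaling 9 cytosolic ribosomal proteins were higher and 15 lower, with a median of -0.05. All tested genes then had 29.9% higher and 28.9% lower, with a median of -0.007. The cumulative curves show these lists beside all tested genes.

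**Figure D3:**
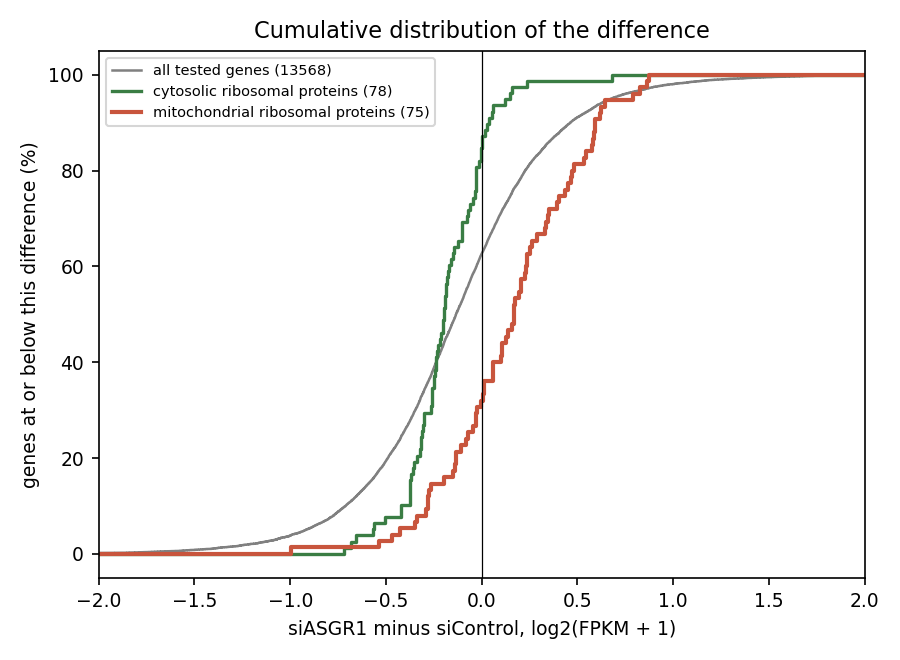
Cumulative share of genes (y axis, percent) at or below a given log2(FPKM + 1) difference between siASGR1 and siControl (x axis) for 75 mitochondrial ribosomal proteins, 78 cytosolic ribosomal proteins and all 13568 tested genes. The curve of the mitochondrial proteins lies to the right of the others over most of its range, with medians of 0.17, -0.20 and -0.13.

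MRPS7, which binds the rRNA of the small subunit in its head, had the largest increase on the log2(FPKM + 1) scale, 0.871 against 0.865 for MRPL9, a gap far smaller than their standard errors. The gene lies on chr17:75261674-75266373 (GRCh38, GENCODE 29, plus strand). Its FPKM was 15.34, 16.67 and 13.41 in siControl and 28.17, 29.79 and 27.32 in siASGR1. Every siASGR1 library was above every siControl library, 1.88-fold in the mean (log2 difference 0.87 ± 0.08 (SE), limma adjusted p = 8.26e-05). The overlapping genes of the opposite strand, GGA3 and MIF4GD, were lower (13.6 to 9.82 and 4.70 to 2.32 in mean FPKM).

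MRPL9 and MRPL24, with relatives in the bacterial large subunit, also rose, and MRPL9 had the larger fold in mean FPKM. MRPL9 had 9.05, 8.21 and 8.69 FPKM against 16.34, 19.20 and 14.47, 1.93-fold higher (limma adjusted p = 0.000224), with the siASGR1 libraries the more widely spread. MRPL24 had 24.60, 22.86 and 22.91 against 39.67, 46.29 and 41.33, 1.81-fold higher (adjusted p = 4.5e-05, limma). The groups did not overlap for either. MRPL24 shares no exon base with another gene, whereas 38.5% of the exon bases of MRPL9 are shared, mostly with genes of the opposite strand.

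Proteins of the stalk, the flexible arm that recruits translation factors, and of its base did not move together. MRPL11, at the stalk's base, had 50.46, 48.05 and 49.07 FPKM in siControl and 82.72, 92.34 and 82.67 in siASGR1, 1.75-fold higher (limma adjusted p = 2.44e-05). MRPL12, the stalk protein that also binds the mitochondrial RNA polymerase, had 19.67, 21.59 and 18.95 against 32.19, 33.95 and 28.29, 1.57-fold higher (adjusted p = 0.000383, limma). The groups were apart for both, and 68.2% of the exon bases of MRPL12 are shared with a gene model of the same strand that is listed at 0 in all libraries. MRPL10, which anchors the stalk, had 32.99, 33.03 and 29.74 against 23.09, 23.34 and 22.00, 1.40-fold lower (limma adjusted p = 0.000254). This grouping of the stalk proteins was made after their values had been seen.

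MRPL15, with a bacterial relative, had 6.25, 7.05 and 7.30 FPKM against 10.82, 11.68 and 11.38, 1.64-fold higher (limma adjusted p = 0.000134). MRPL40, which is mitochondria-specific, had 13.56, 13.45 and 13.03 against 21.19, 20.73 and 20.06, 1.55-fold higher (adjusted p = 2.93e-05, limma). Libraries of a group were close together for MRPL40 and no group overlapped for either gene. MRPL53, also mitochondria-specific and low in level, had 2.39, 2.88 and 2.37 against 3.94, 4.59 and 4.29, 1.68-fold higher (limma adjusted p = 0.000813). It shares 45.2% of its exon bases with CCDC142 of the same strand, which rose as well (2.50 to 4.04 in mean FPKM), and reads of these genes may not be told apart.

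MRPL46 and MRPS11 are neighbours that start back to back on chromosome 15, and they rose side by side. The 33 bases between their GENCODE starts, chr15:88467420-88467452 (GRCh38, read on the plus strand), are shown because they separate starts of a large-subunit and a small-subunit gene.
MRPL46 and MRPS11: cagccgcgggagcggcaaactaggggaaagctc
MRPL46 had 2.02, 2.21 and 2.09 FPKM in siControl and 3.62, 3.84 and 3.85 in siASGR1, 1.79-fold higher (limma adjusted p = 0.000151). MRPS11 had 6.18, 6.58 and 7.09 against 9.56, 10.69 and 11, 1.57-fold higher (adjusted p = 0.00032, limma). Neither gene's groups overlapped.

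Such back-to-back starts within 1000 bases were found for 17 members, in 16 pairs of which 12 were tested on both sides. This search was added after values had been seen. In 4 pairs both genes were called higher: MRPL46 with MRPS11, MRPL36 with NDUFS6, MRPL47 with NDUFB5 and MRPS34 with EME2. Among all 473 such pairs of protein-coding genes tested on both sides, both were called higher in 9.09% and both lower in 18.6%. They were called in opposite directions in 16.7%, and neither gene was called in 12.7%. With 12 pairs the shares of the members are imprecise, and no difference was tested. NDUFS6 and NDUFB5 encode subunits of respiratory complex I. Both genes were called lower in 0 pairs and called in opposite directions in 0. MRPL21 and MRPL57 were higher and MRPL54 lower beside neighbours that were not called (IGHMBP2, SKA3 and APBA3). In 3 pairs neither was called, and MRPL27 and MRPL52, not called themselves, stood beside EME1 and SLC7A7, which were lower (13.6 to 8.40 and 1.82 to 0.837 in mean FPKM).

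**Figure D4:**
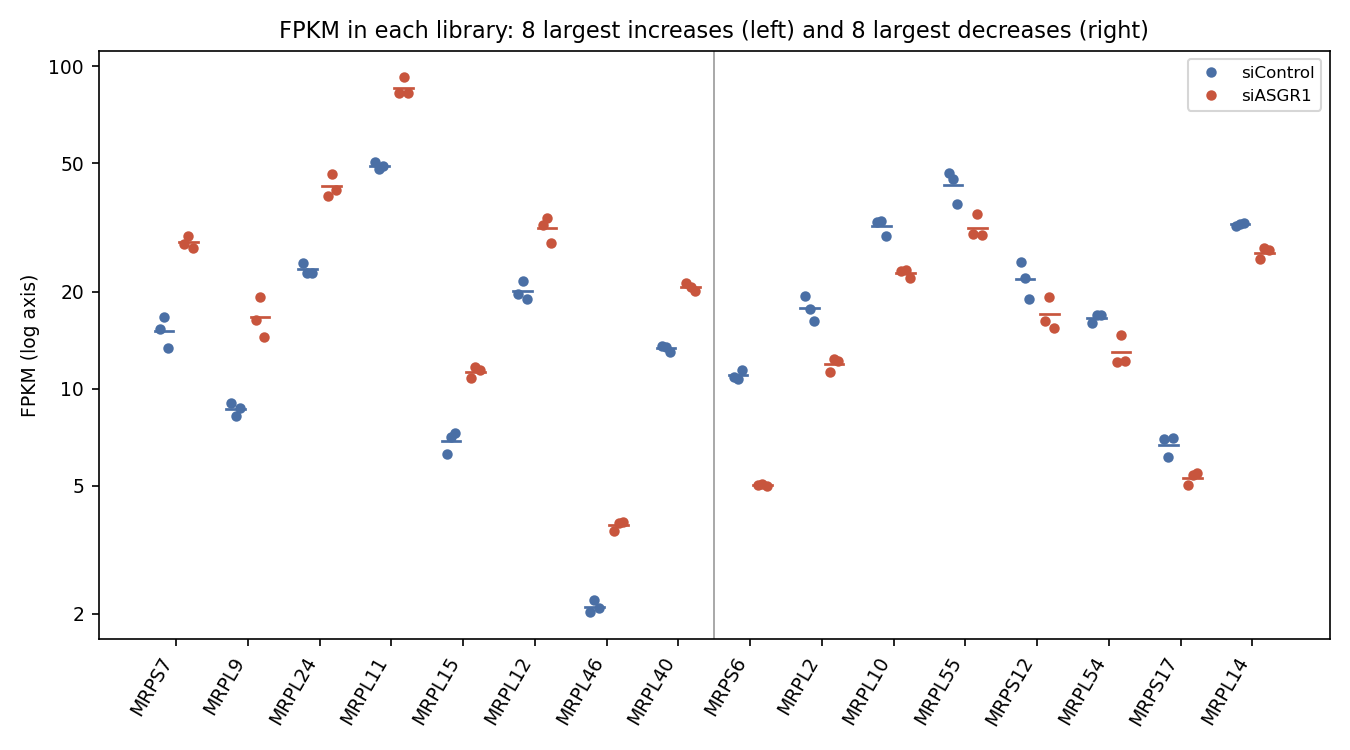
FPKM (y axis, log scale) in each library for the 8 largest called increases (left) and the 8 largest called decreases (right), points for single libraries and bars for the mean of 3. The groups are apart for all 8 increases, and among the decreases only MRPS12 has groups that overlap.

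MRPS6, with a relative in the bacterial small subunit, had the largest decrease by far. It lies on chr21:34073224-34143034 (GRCh38, GENCODE 29, plus strand). Its FPKM was 10.88, 10.74 and 11.46 in siControl and 5.02, 5.06 and 5 in siASGR1. The siASGR1 libraries were almost equal and all below siControl, 2.19-fold lower in the mean (log2 difference -0.996 ± 0.05 (SE), limma adjusted p = 6.6e-06). MRPS6 shares 9.6% of its exon bases with SLC5A3, a myo-inositol transporter gene listed at 0 in all libraries, and with the transcript AP000317.2, which went from 1.15 to 0.083 in mean FPKM. How reads of shared exons were assigned is not given in the sources used here.

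MRPL2, a core protein of the large subunit next to its catalytic centre, had 19.44, 17.65 and 16.24 FPKM against 11.26, 12.34 and 12.17, 1.49-fold lower with groups apart (limma adjusted p = 0.000505). MRPL14, another protein with a bacterial relative, had 31.87, 32.49 and 32.68 against 25.16, 27.28 and 26.83, 1.22-fold lower (adjusted p = 0.00101, limma). MRPL55 had 46.76, 44.68 and 37.32 against 30.10, 34.83 and 29.90, 1.36-fold lower (limma adjusted p = 0.00635). The groups did not overlap for these genes, but the calls for MRPL14 and MRPL55 were lost with scaling factors over all genes above 0 (adjusted p = 0.149 and 0.0943, limma).

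MRPL54, which is mitochondria-specific, had 15.94, 16.97 and 16.92 FPKM against 12.10, 14.62 and 12.22, 1.28-fold lower (limma adjusted p = 0.00618). MRPS17 of the small subunit had 6.98, 6.12 and 7.01 against 5.03, 5.39 and 5.46, 1.27-fold lower (adjusted p = 0.00659, limma). Neither call held with median-of-ratios scaling (limma adjusted p = 0.0699 and 0.0667), and that of MRPS17 was also lost with quantile normalization (adjusted p = 0.0917, limma). MRPS17 shares 27.0% of its exon bases with 2 genes of the same strand. One of these, NIPSNAP2, was called higher (5.30 to 6.12 in mean FPKM). MRPS12, a protein of the decoding centre whose bacterial relative is known from streptomycin resistance, had 24.78, 22.07 and 18.97 against 16.21, 19.28 and 15.45, with overlapping groups. Its call (1.29-fold lower, limma adjusted p = 0.0281) was lost without siControl replicate 1, siControl replicate 2, siASGR1 replicate 1 or siASGR1 replicate 3 (adjusted p = 0.0819, 0.0693, 0.08 and 0.0894, limma). The MRPS12 call was also lost with median-of-ratios scaling, upper-quartile scaling and quantile normalization (adjusted p = 0.171, 0.0663 and 0.0578, limma). Without the filter on low values it was lost too (limma adjusted p = 0.0859).

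The members known for a further role or for inherited disease were read whatever their values. MRPL44, a protein related to ribonuclease III in which inherited variants cause mitochondrial disease, had 16.75, 15.66 and 16.22 FPKM against 13.27, 13.47 and 13.28, 1.22-fold lower with groups apart (limma adjusted p = 0.00132, and 0.189 with factors over all genes above 0). MRPS16, another disease gene, had 12.77, 13.15 and 12.23 against 17.98, 17.28 and 15.83, 1.34-fold higher (adjusted p = 0.000831, limma). MRPS22, the third of these, had 6.30, 5.85 and 6.87 against 5.78, 6.07 and 6.85 and was not called. MRPS16 shares only 0.7% of its exon bases with DNAJC9 of the same strand, which was not called (6.75 and 6.13 in mean FPKM).

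MRPL58, a peptidyl-tRNA hydrolase that rescues stalled ribosomes, had 18.30, 21.21 and 17.03 FPKM against 20.89, 20.75 and 20.06. Its groups overlapped and it was not called (log2 difference 0.12, 95% interval -0.05 to 0.30, limma adjusted p = 0.191). It was called higher without siControl replicate 2 (adjusted p = 0.0161, limma), with median-of-ratios scaling (log2 difference 0.27, adjusted p = 0.0219, limma) and with median-of-ratios or upper-quartile factors over all genes above 0 (adjusted p = 0.0116 and 0.00799, limma). MRPS30, a large-subunit protein despite its symbol, had 9.14, 8.30 and 9.39 against 10.10, 10.14 and 12.41, 1.22-fold higher with groups apart (limma adjusted p = 0.0366). That call was lost without siControl replicate 1, siControl replicate 2 or siASGR1 replicate 3 (adjusted p = 0.0673, 0.11 and 0.0821, limma). Without the filter on low values the MRPS30 call was lost as well (limma adjusted p = 0.0956). MRPS36, now known as a component of the 2-oxoglutarate dehydrogenase complex and not of the ribosome, had 10.95, 10.50 and 11.69 against 11.95, 11.42 and 11.23 and was not called. It was called higher with median-of-ratios scaling (limma adjusted p = 0.0123) and with median-of-ratios or upper-quartile factors over all genes above 0 (adjusted p = 0.00461 and 0.00342, limma).

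The 3 paralogues of the S18 family were not called. MRPS18A, placed in the large subunit, had mean FPKM of 8.33 ± 0.48 and 8.07 ± 0.78 (SD, n = 3). MRPS18B and MRPS18C, both of the small subunit, had 23.8 ± 0.30 against 24.1 ± 1.68 and 3.37 ± 0.32 against 3.14 ± 0.28. The 95% intervals of the log2 difference were -0.22 to 0.13, -0.12 to 0.14 and -0.27 to 0.11. The smallest differences of all belonged to MRPS2 (11.2 ± 0.85 against 11.2 ± 1.06 FPKM), MRPL43 (23.8 ± 1.47 against 24.0 ± 1.51), MRPS5 (14.4 ± 0.56 against 14.5 ± 0.44) and MRPS18B. MRPS5 and MRPS18B were called higher with median-of-ratios scaling (limma adjusted p = 0.0332 and 0.0437), and MRPL43 with median-of-ratios factors over all genes above 0 (limma adjusted p = 0.0348).

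Ribosomal proteins of the mitochondrion that carry other symbols moved in both directions. GADD45GIP1 had the largest change of the 5 (68.2 ± 5.65 against 128.5 ± 8.41 FPKM, limma adjusted p = 4.99e-05), and PTCD3 (9.88 ± 0.47 against 13.4 ± 0.51) and CHCHD1 (12.5 ± 0.71 against 14.8 ± 0.61) were also higher. DAP3, a GTP-binding protein of the small subunit, was lower (36.0 ± 1.42 against 29.1 ± 1.24), a call lost with factors over all genes above 0 (limma adjusted p = 0.124). AURKAIP1 was not called (63.2 ± 2.58 against 62.7 ± 7.44).

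The lists that follow are to be read against the 20.9% of all tested genes that were higher and the 40.4% that were lower (29.9% and 28.9% with median-of-ratios scaling). Of 25 assembly and rRNA maturation factors 7 were higher and 6 lower, with a median log2 difference of 0.10, and with median-of-ratios scaling 13 were higher and 4 lower, with a median of 0.23. MPV17L2, an assembly factor of the inner membrane, was lower (37.8 ± 3.12 against 14.5 ± 1.36 FPKM, 2.61-fold, limma adjusted p = 1.85e-05). The pseudouridine synthase RPUSD4 (6.70 ± 0.28 against 11.7 ± 0.55) and the helicase DHX30 (15.2 ± 1.18 against 22.8 ± 0.81) were higher. Of 16 translation factors 7 were higher and 6 lower, with a median of 0.02 (7, 4 and 0.15 with median-of-ratios scaling). The elongation factor TUFM (162.9 ± 10.9 against 238.7 ± 6.69 FPKM) and the methionyl-tRNA formyltransferase MTFMT (6.06 ± 0.33 against 9.48 ± 0.29) were higher, and OXA1L, the inner-membrane insertase that binds the ribosome, was lower (82.7 ± 1.03 against 57.7 ± 1.26).

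Of 12 genes for transcription and maintenance of mitochondrial DNA 2 were higher and 5 lower, with a median of -0.002, shares of 16.7% and 41.7% that are close to those of all tested genes. With median-of-ratios scaling the balance turned over, to 6 higher and 1 lower with a median of 0.14. The mitochondrial RNA polymerase POLRMT was higher (18.3 ± 1.62 against 26.0 ± 0.75 FPKM, limma adjusted p = 0.00057). POLG2, the accessory subunit of the DNA polymerase, was lower (8.38 ± 0.61 against 6.64 ± 0.07), a call lost with factors over all genes above 0 (limma adjusted p = 0.131). TFAM, which packages and helps to transcribe mitochondrial DNA, was lower (10.0 ± 1.02 against 8.21 ± 0.34, limma adjusted p = 0.0179), a call lost without siASGR1 replicate 1 or siASGR1 replicate 2 (adjusted p = 0.0531 and 0.0533, limma) and with median-of-ratios scaling (adjusted p = 0.174, limma). Of 8 tested regulators 1 was higher and 2 were lower, with a median of -0.08 (1, 1 and 0.04 with median-of-ratios scaling). The ETS-family subunit GABPA was lower (4.80 ± 0.15 against 2.89 ± 0.32 FPKM, limma adjusted p = 0.000477), whereas its partner GABPB1 was higher (5.06 ± 0.29 against 7.23 ± 0.42, adjusted p = 0.000718, limma). PPRC1 was lower (13.4 ± 0.59 against 11.9 ± 0.32, limma adjusted p = 0.0247), a call lost without siControl replicate 1, siControl replicate 2, siASGR1 replicate 1 or siASGR1 replicate 2 (adjusted p = 0.0856, 0.077, 0.067 and 0.0654, limma) and with the replicate block (adjusted p = 0.0574, limma). The PPRC1 call was also lost with median-of-ratios scaling, where the log2 difference was -0.016 (limma adjusted p = 0.8). Upper-quartile scaling and quantile normalization left no call either (adjusted p = 0.16 and 0.179, limma). YY1 and NRF1 were not called (21.2 against 20.1 and 5.08 against 4.39 in mean FPKM).

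MT-RNR2, the rRNA of the large subunit, was lower (9786 ± 1020 against 5351 ± 188 FPKM, 1.83-fold, limma adjusted p = 0.000124), whereas MT-RNR1, that of the small subunit, was not called (2452 ± 172 against 2529 ± 204). MT-RNR1 was called higher with median-of-ratios or upper-quartile factors over all genes above 0 (limma adjusted p = 0.0378 and 0.031). As background, the library kit named in the labels selects polyadenylated RNA, and its part in the rRNA values was not tested. Of the 13 mRNAs of mitochondrial DNA 5 were higher and 5 lower, with a median of 0.17, and with median-of-ratios scaling 7 were higher and 1 lower, with a median of 0.33. MT-CO3 (3489 ± 79.3 against 5468 ± 165 FPKM) and MT-CYB (2651 ± 70.2 against 3217 ± 45.4) were higher and MT-ND4L (4571 ± 99.1 against 3648 ± 22.4) was lower. Without the filter on low values the calls of these mitochondrial transcripts were lost (limma adjusted p = 0.0767 for MT-RNR2, 0.0518 for MT-CO3, 0.216 for MT-CYB and 0.258 for MT-ND4L). The call of MT-CYB was also lost with quantile normalization and that of MT-ND4L with median-of-ratios factors over all genes above 0 (limma adjusted p = 1.0 and 0.0994).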

How the data were processed

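Libraries were made with an Illumina TruSeq kit from total RNA of Huh7 cells, per the labels' protocols. The submitters' processing notes name bcl2fastq 2.17.1.14, cutadapt 1.9.1, HISAT2 2.0.1 and the build hg19. Neither the counting tool nor its strand setting or annotation is given in the sources used here, so genes sharing exons on either strand may not be told apart. Of the members, 34 share over 5% of their exon bases with another gene of either strand. The values deposited by the authors are FPKM with 2 decimals, although the table is named as raw counts. Symbols were found for 51996 of 57905 IDs (89.8%), and exon lengths and positions come from GENCODE 29 (GRCh38). The steps between low FPKM values gave whole reads for 96.8% to 97.5% of values (tolerance 0.15 read). No pair of libraries agreed within sampling noise.

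Genes that reached 1 FPKM in 3 or more of the 6 libraries were tested with limma 3.58.1 in R 4.3.3 on log2(FPKM + 1), two-sided, with a variance prior that follows the level, no covariates and Benjamini-Hochberg adjustment over 13568 genes, and called at an adjusted p under 0.05. The members, lists and tests were chosen with earlier results of these data known. Named members were the 8 largest called changes in each direction, the 4 highest, the 4 lowest and the 4 least different, and 11 chosen for their role. Of each further list the text names up to 3 called genes with the smallest p, and every gene of lists of 5 or fewer; YY1, NRF1 and overlapping or neighbouring genes were named after their values had been seen. Alternatives covered scaling, pseudocount, filter, prior, threshold, source file, the replicate number as a block and leaving out each library. A limma-voom fit on rebuilt reads was added after seeing the data and called 2974 genes higher and 5652 lower (members 40 and 12). The scaling factors were first computed over all genes above 0 and limited to tested genes after those counts had been seen, and both versions are reported.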

Additional observations from a re-analysis of the deposited data

How the results depend on the processing

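The members called lower, 11 in the reported fit, were 6 with median-of-ratios scaling over tested genes and 3 with median-of-ratios or upper-quartile factors over all genes above 0, versions chosen or limited after seeing the data. With those last factors all genes gave 4528 or 4766 higher (2839 in the reported fit) and 3494 or 3266 lower (5480). With a filter at 5 FPKM, which tests fewer genes, 2196 were higher and 3382 lower. The log2 difference of PPRC1 turned from -0.157 to 0.032 and 0.056 with those factors, with no call. The cause of these shifts was not tested. Leaving out 1 library at a time gave 30 to 38 members higher and 9 to 12 lower, and 2495 to 2757 higher and 4950 to 5151 lower among all genes. A gene whose sign changed between fits that both left it uncalled was counted as unchanged. Deviations of same-numbered libraries from their group means were nearly uncorrelated (-0.019, 0.002 and 0.012). With 3 libraries per group this cannot show whether the numbers mark pairs. With the replicate block 34 members were higher and 12 lower, and 2761 and 5303 of all genes. Depth limits the lowest genes: MRPL30 rested on as few as 6 rebuilt reads, tested members on at least 52.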
